A study of Mus musculus with 407 samples.

Results

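Brakes on the cell cycle and genes that act against them were described across skeletal muscle aging as a group of 10 genes: the cyclin-dependent kinase (CDK) inhibitors Cdkn1a, Cdkn1b, Cdkn2a, Cdkn2b, Cdkn2c and Cdkn2d, the pocket protein Rb1, the tumor suppressor Trp53, its antagonist Mdm2 and the cyclin Ccnd1. The genes were chosen by name for their roles in senescence and cell cycle exit, not by their values. Earlier results of these data were known when the genes were chosen. All 10 were found among the 24458 gene symbols of the count tables. RNA of 4 muscles, the diaphragm of the trunk and the gastrocnemius, soleus and tibialis anterior of the hindlimb, was sequenced in C57BL/6J mice of both sexes aged 6, 12, 18, 21, 24 or 27 months, which gave 407 libraries in 48 groups of 6 to 10. The labels give no transgene or treatment, and the 6-month mice of the same sex and muscle served as the reference. The animals were bought at different ages and killed 1 age group per day, so age and collection day cannot be told apart. Whole muscles were sequenced, so fewer cells of a type and less RNA per cell cannot be told apart either.

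Library totals ran from 38583802 to 300089909 assigned counts with a median of 72766895. The muscles matched their labels in fiber type markers. Myh7, the slow myosin, had a median of 6176 CPM in soleus and 2.57 in tibialis anterior, and Myh4, the fast myosin of type IIB fibers, had a median of 40210 CPM in gastrocnemius and 107 in soleus. The library of replicate 3 in the male diaphragm at 21 months had the highest total and 34013 CPM of liver transcripts, the most of any library. The next highest library held 11659 CPM, against a median of 7.59 over all libraries. Another 6 diaphragm libraries held little Ckm, the muscle creatine kinase, at 16.3 to 267 CPM against 805 to 2446 CPM in the other 92. They were male replicate 2 at 6 months, male replicate 6 at 27 months, and female replicates 2 at 6, 0 at 21, 3 at 24 and 0 at 27 months. In these 6 libraries the nuclear RNA Malat1 reached 12913 to 23575 CPM (others 7858 to 12531), Rb1 58.2 to 101 CPM (others 34.0 to 89.3), Trp53 2.28 to 7.20 CPM (others 8.04 to 22.3) and Cdkn2d 0.183 to 0.980 CPM (others 0.717 to 2.76). Diaphragm calls lost without them are named beside the result.

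Entry into S phase is governed by the kinases Cdk4 and Cdk6 with D-type cyclins, and by Cdk2 with cyclin E. The Ink4 proteins p16 (Cdkn2a), p15 (Cdkn2b), p18 (Cdkn2c) and p19 (Cdkn2d) bind Cdk4 and Cdk6, whereas p21 (Cdkn1a) and p27 (Cdkn1b) bind cyclin-CDK complexes more broadly. Active inhibitors keep Rb1 bound to E2F factors and S phase genes silent. Cdkn2a also encodes p19Arf, which restrains Mdm2, and Mdm2 marks p53 for degradation while being itself a p53 target, as p21 is. In skeletal muscle p21, p18 and Rb1 are known from myoblast cell cycle exit, and p27 from the quiescence of satellite cells.

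Promoters are shown for the genes whose levels changed in most comparisons or that are textbook p53 targets, as 250 bases before an annotated start. RefSeq-based windows in GRCm38.p6 coordinates were present for 8 of the 10 genes (11 windows); Rb1 and Ccnd1 had no entry. Capitals mark the p53 half-site core ACATGT, which reads the same on both strands, and the GC box, GGGCGG on one strand and CCGCCC on the other. They also mark the FOXO core, TGTTTAC on one strand and GTAAACA on the other. The sequences of Cdkn1a at its upstream start (chr17:29090729-29090978, plus strand) and downstream start (chr17:29093519-29093768, plus strand), of Cdkn1b (chr6:134920151-134920400, plus strand) and of Mdm2 (chr10:117710759-117711008, minus strand) read 5′ to 3′ as follows.
Cdkn1a upstream start: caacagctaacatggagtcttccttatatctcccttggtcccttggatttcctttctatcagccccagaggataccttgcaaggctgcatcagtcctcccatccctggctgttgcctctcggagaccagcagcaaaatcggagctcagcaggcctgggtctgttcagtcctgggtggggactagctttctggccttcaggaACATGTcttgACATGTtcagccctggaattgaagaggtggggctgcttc
Cdkn1a downstream start: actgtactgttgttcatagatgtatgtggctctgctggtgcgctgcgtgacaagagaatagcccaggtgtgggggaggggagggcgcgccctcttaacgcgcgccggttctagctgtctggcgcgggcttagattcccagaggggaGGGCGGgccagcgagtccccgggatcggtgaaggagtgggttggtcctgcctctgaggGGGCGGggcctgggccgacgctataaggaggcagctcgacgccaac
Cdkn1b: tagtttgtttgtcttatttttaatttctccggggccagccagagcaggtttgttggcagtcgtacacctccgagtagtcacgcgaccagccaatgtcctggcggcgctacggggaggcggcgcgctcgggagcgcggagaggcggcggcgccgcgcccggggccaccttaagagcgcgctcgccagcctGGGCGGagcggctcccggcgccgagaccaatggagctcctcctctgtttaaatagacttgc
Mdm2: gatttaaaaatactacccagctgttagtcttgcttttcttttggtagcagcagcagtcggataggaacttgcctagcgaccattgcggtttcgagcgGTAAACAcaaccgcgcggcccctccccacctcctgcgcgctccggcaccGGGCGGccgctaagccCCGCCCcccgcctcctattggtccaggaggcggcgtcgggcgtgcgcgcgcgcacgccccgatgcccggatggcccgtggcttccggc
The upstream Cdkn1a window held ACATGT at -49 and -39 from the start, a hexamer that was found in 4.58% of all 32851 promoter windows. The downstream Cdkn1a window held GC boxes at -104 and -46, the Cdkn1b window held 1 at -61, and the Mdm2 window held a pair at -104 and -88; 32.7% of all windows held this motif. CCAAT or its complement ATTGG, found in 33.8% of windows, lay at -161 and -35 in Cdkn1b and at -72 in Mdm2, and the Mdm2 window held the FOXO core at -153 (3.17% of windows). The E2F core TTTNGCGC, searched on both strands and found in 1.13% of windows, matched a single window of the group, at -244 from the internal start of Cdkn2a at 89282192. None of these motifs was found in the Cdkn2b window. These matches are letters in a window and no binding was measured.

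At 6 months Cdkn2b and Cdkn2a had the lowest levels per kilobase of exon in all 4 muscles. Over all 6-month libraries Mdm2 averaged 15.2 CPM per kilobase, Rb1 10.6, Cdkn1b 7.38, Trp53 5.54, Cdkn1a 4.62 and Ccnd1 2.97. The Ink4 genes lay lower, with 1.58 for Cdkn2d, 1.19 for Cdkn2c, 0.271 for Cdkn2b and 0.0240 for Cdkn2a. With both sexes together, neighbors in this order often did not differ beyond their spread. In the diaphragm Rb1 ran from 8.97 to 21.7 CPM per kilobase (median 10.7) and Mdm2 from 8.07 to 11.2 (median 9.67). In the gastrocnemius the Mdm2 range of 16.4 to 21.2 (median 19.1) lay above the Rb1 range of 7.35 to 11.0 (median 9.50). Cdkn1a and Trp53 overlapped in all 4 muscles with the sexes pooled, as did Cdkn2c and Cdkn2d in the diaphragm, gastrocnemius and soleus. In males alone Cdkn1a lay wholly below Trp53 per kilobase in the gastrocnemius and tibialis anterior.

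**Figure D1:**
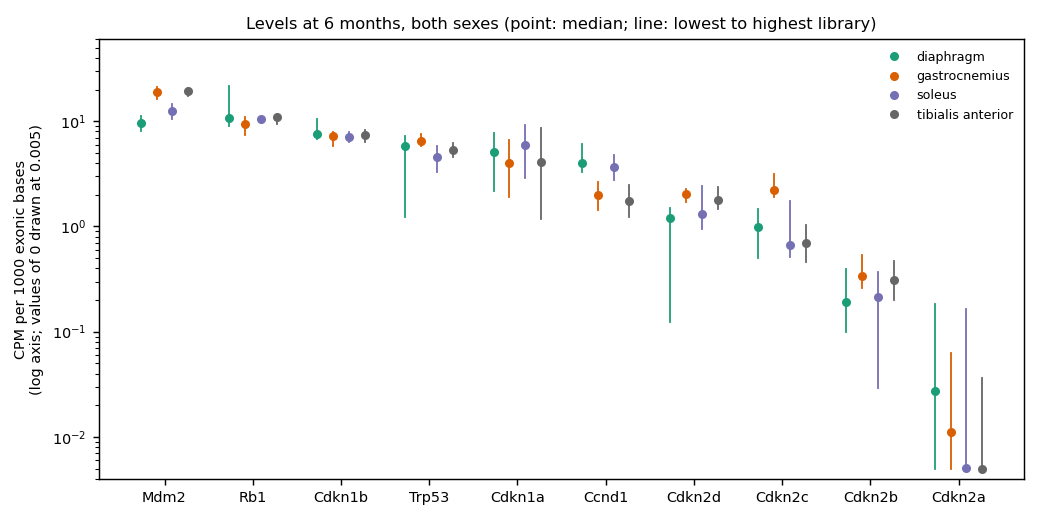
Levels of the 10 genes at 6 months in CPM per kilobase of exon on a log axis, by muscle with both sexes together; points are medians, lines run from the lowest to the highest library, and values of 0 are drawn at 0.005. Mdm2 medians were 19.1 in gastrocnemius and 19.6 in tibialis anterior, and Cdkn2a medians were at or below 0.0272 in all 4 muscles.

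Of the 10 genes, 4 were called in most combinations of sex and muscle at 27 months. Cdkn1b (p27), which restrains cyclin-CDK complexes in resting cells, fell in 7 of 8, by 18.9% to 37.7%. Cdkn1a (p21) rose in 5 of 8, by 1.56-fold to 3.68-fold, and Rb1 rose in 6 of 8, by 1.21-fold to 1.68-fold. Ccnd1 also rose in 5, Mdm2 in 3, Trp53 and Cdkn2c in 2 each and Cdkn2a in 1 of the 3 in which it could be fitted. Cdkn2a passed the filter on low counts in that fit only through its older libraries. Cdkn2b and Cdkn2d passed the test nowhere at 27 months. Differences between ages were tested with edgeR's quasi-likelihood test for each sex and muscle over all ages, and a gene was called at a Benjamini-Hochberg adjusted p below 0.05 over all genes tested.

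At 27 against 6 months 31 of 75 tests of these genes were called, 24 upward and 7 downward, and all 7 downward calls were Cdkn1b. The female gastrocnemius had the most, with 7 of 9, where 29.1% of all genes tested were called. In the male gastrocnemius 5 of 10 were called (all genes 23.1%), in the female tibialis anterior 5 of 9 (21.9%), in the male tibialis anterior 5 of 9 (17.7%) and in the female soleus 4 of 9 (18.7%). The male soleus had 3 of 9 (2.83%), the male diaphragm 2 of 10 (8.62%) and the female diaphragm 0 of 10 (1.61%). Cdkn2a was too low to be fitted in both soleus and both tibialis anterior fits and in the female gastrocnemius. The median log2 change of the genes was 0.21 in the female gastrocnemius, where that of all genes was 0.02, 0.25 in the female soleus (all genes -0.03) and 0.36 in the male diaphragm (0.02). It was 0.23 in the male tibialis anterior (0.01), 0.22 in the female diaphragm (0.03), 0.11 in the female tibialis anterior (0.00), 0.10 in the male gastrocnemius (0.00) and -0.03 in the male soleus (-0.01). Library ranges at 27 and 6 months did not overlap in 8 of the 75 tests, against 1.63% of tests over all genes. These were Cdkn1a higher in both gastrocnemius groups, Rb1 higher in the male gastrocnemius and female tibialis anterior, Mdm2 higher in the female soleus, and Cdkn1b lower in the female gastrocnemius, soleus and tibialis anterior.

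**Figure D2:**
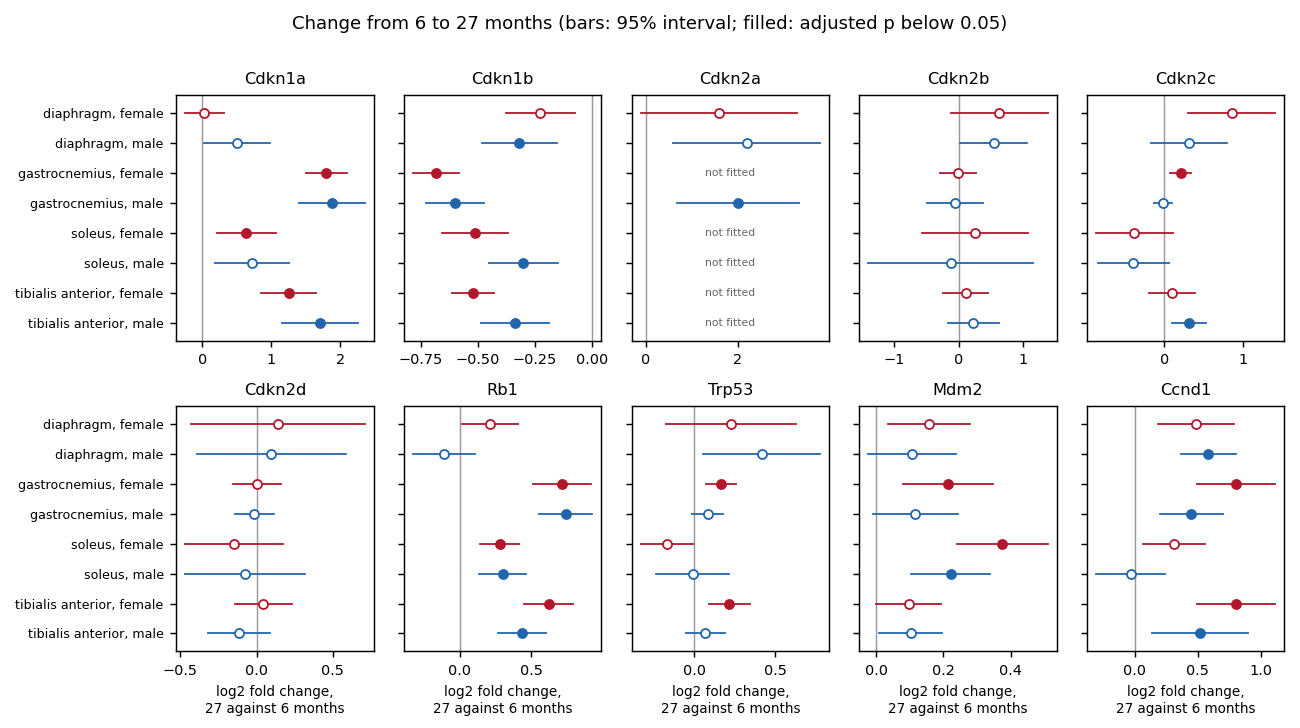
Log2 fold change at 27 against 6 months for each of the 10 genes, by muscle and sex; bars are 95% intervals from edgeR and filled points have an adjusted p below 0.05. All filled points of Cdkn1b lie below 0 and all filled points of the other genes lie above 0; Cdkn2a was not fitted in 5 of the 8 combinations.

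The calls accumulated with age at different paces in the hindlimb muscles, but not in the diaphragm. In the female gastrocnemius 1 gene was called at 12, 2 at 18, 5 at 21 and 5 at 24 months, where 0.579%, 9.54%, 15.7% and 19.1% of all genes were. The male gastrocnemius had 1, 2, 2 and 4 at the same ages (all genes 1.06%, 2.96%, 10.1% and 14.6%). The female tibialis anterior had 1, 1, 2 and 3 (0.493%, 4.5%, 10.6% and 16.2%) and the male tibialis anterior 0, 0, 2 and 3 (0.331%, 1.93%, 6.74% and 15.4%). The single gene called at 12 months in these 3 groups was Cdkn1b. For the female soleus the counts were 0, 1, 2 and 4 (0.208%, 5.62%, 22.5% and 23.2%), and its 2 of 9 at 21 months lay close to the share of all genes. For the male soleus they were 0, 0, 1 and 1 (0.137%, 0.476%, 1.34% and 4.26%). The female diaphragm had 0, 0, 1 and 1 (0%, 0.222%, 1.53% and 3.32%), and the male diaphragm had 0, 1, 5 and 2 (0.0622%, 0.143%, 10.5% and 1.17%). The 5 of the male diaphragm at 21 months were Ccnd1, Cdkn1a, Cdkn2b and Mdm2 upward and Cdkn1b downward, and 3 of them, Cdkn1a, Cdkn2b and Mdm2, were not called there at 24 or 27 months. Without replicate 3, the library with the most liver transcripts, Cdkn2b (log2 0.88, adjusted p = 0.0856) and Mdm2 (0.23, adjusted p = 0.0913) were lost at 21 months. Still called were Cdkn1a (1.00, adjusted p = 0.035), Ccnd1 (0.47, adjusted p = 0.0256) and Cdkn1b (-0.42, adjusted p = 0.00966). Over all genes 175 rose and 223 fell at 21 months without it, against 1691 called with it. Over the 40 tests of each gene at the 5 older ages, Cdkn1b fell in 30, Ccnd1 rose in 14, Cdkn1a in 13, Rb1 in 10 and Mdm2 in 6. Cdkn2c rose in 4 and fell in 1, Trp53 rose in 2 and fell in 1, Cdkn2b rose in 1, Cdkn2d was called in 0, and Cdkn2a rose in 2 of the 15 tests it entered.

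Cdkn1a, whose product p21 halts the cycle after p53 activation and in differentiating myoblasts, had the highest fold changes of the group in the gastrocnemius and tibialis anterior after Cdkn2a, which rested on few reads. Female gastrocnemius libraries ran from 11.1 to 18.1 CPM (median 14.4) at 6 months, from 23.5 to 42.0 (28.6) at 21, from 24.4 to 48 (28.0) at 24 and from 39.0 to 75.7 (50.2) at 27 months. All libraries at 21, 24 and 27 months lay above all 6-month libraries. The fold change was 2.04 at 21, 2.23 at 24 and 3.49 at 27 months (log2 1.80 ± 0.15 SE, adjusted p = 6.26e-13), and 18 months was already called (log2 0.48 ± 0.15, adjusted p = 0.0344). Male gastrocnemius libraries ran from 5.17 to 10.4 CPM (median 7.43) at 6, from 15.8 to 27.5 (20.9) at 21, from 11.5 to 36.8 (19.1) at 24 and from 17.4 to 79.1 (21.3) at 27 months. These 3 ages again lay wholly above 6 months, with folds of 2.79, 2.84 and 3.68 (27 months log2 1.88 ± 0.24, adjusted p = 4.77e-08). Without replicate 8 at 27 months, the library at 79.1 CPM, the change was 1.58 (adjusted p = 2.25e-08).

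The tibialis anterior showed the same direction with overlapping libraries. In females Cdkn1a ran from 11.7 to 23.3 CPM (median 15.3) at 6 and from 18.9 to 66.7 (31.4) at 27 months, a 2.38-fold rise (log2 1.25 ± 0.20, adjusted p = 6.4e-06). In males it ran from 3.23 to 10.4 CPM (median 5.76) at 6, from 6.77 to 19.9 (13.0) at 21, from 7.43 to 23.1 (13.7) at 24 and from 5.5 to 36.8 (16.6) at 27 months. The male folds were 2.32 at 21, 2.52 at 24 and 3.26 at 27 months (log2 1.71 ± 0.27, adjusted p = 1.16e-05).

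The soleus and diaphragm gave smaller or uncalled differences in Cdkn1a. Female soleus libraries ran from 16.0 to 25.2 CPM (median 18.5) at 6 and from 14.9 to 80.1 (24.1) at 27 months, a 1.56-fold rise (log2 0.64 ± 0.21, adjusted p = 0.0266). That call rested on replicate 0 at 27 months, the library at 80.1 CPM; without it the log2 difference was 0.34 (adjusted p = 0.148). It was also lost with limma-voom (0.48, adjusted p = 0.0703) and with library totals only (0.48, adjusted p = 0.0796). Male soleus libraries ran from 7.79 to 17 CPM (11.2) at 6 and from 5.4 to 40.6 (17.3) at 27 months (log2 0.72, 95% interval 0.19 to 1.26, adjusted p = 0.144). The female diaphragm ran from 8.24 to 21.2 CPM (15.2) at 6 and from 11.3 to 20.2 (15.0) at 27 months, a log2 difference of 0.03 (interval -0.25 to 0.31, adjusted p = 0.978). In the male diaphragm Cdkn1a peaked at 21 months, at 12.7 to 29.7 CPM (25.1) against 5.92 to 16.0 (10.02) at 6 months, a 2.09-fold rise (log2 1.06 ± 0.26, adjusted p = 0.00864, and 1.00 with adjusted p = 0.035 without the library rich in liver transcripts). Without the libraries low in Ckm that change was 0.99 ± 0.26 (adjusted p = 0.0113). At 27 months male diaphragm libraries ran from 8.59 to 30.9 CPM (12.8) and the difference from 6 months was not called (log2 0.51 ± 0.24, adjusted p = 0.174).

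Cdkn1b, the p27 gene, moved the other way and earlier. In the female gastrocnemius it ran from 26.7 to 36.0 CPM (median 32.3) at 6, from 22.8 to 26.3 (24.8) at 12, from 19.4 to 22.4 (21.6) at 18 and from 15.0 to 21.6 (20.0) at 27 months. Every library at 12 months or older lay below every 6-month library. The level fell by 22.8% at 12 months (log2 -0.37 ± 0.05, adjusted p = 1.61e-05), by 32.4% at 18 and by 37.7% at 27 months (log2 -0.68 ± 0.05, adjusted p = 9.32e-15). Male gastrocnemius libraries ran from 28.4 to 36.3 CPM (34.7) at 6, from 21.8 to 28.1 (26.3) at 12, from 18.5 to 23.6 (21.4) at 24 and from 17.7 to 30.2 (21.5) at 27 months. The male fall was 23.5% at 12, 36.3% at 24 and 34.1% at 27 months (log2 -0.60 ± 0.06, adjusted p = 4.42e-10), and ranges stood apart from 6 months at 12, 18, 21 and 24 months.

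Tibialis anterior libraries of females also lay below those of 6 months at all 5 older ages. They ran from 29.1 to 35.1 CPM (median 33.0) at 6, from 25.4 to 28.6 (26.8) at 12 and from 19.2 to 24.3 (22.7) at 27 months, and the level fell by 17.5% at 12 and 30.3% at 27 months (log2 -0.52 ± 0.04, adjusted p = 2.31e-12). Males ran from 32.7 to 37.9 CPM (34.9) at 6, from 22.9 to 27.0 (25.0) at 24 and from 19.6 to 40.4 (27.0) at 27 months. Their fall was 28.9% at 24 (adjusted p = 6.44e-06) and 21.0% at 27 months (log2 -0.34 ± 0.07, adjusted p = 0.00078), the latter with overlapping ranges. In the soleus Cdkn1b fell by 30.0% in females at 27 months, from 29.0 to 36.4 CPM (31.6) down to 19.3 to 26.4 (22.9), with an adjusted p of 7.71e-07. In the male soleus it fell by 18.9%, from 29.1 to 36.0 CPM (32.6) down to 19.8 to 36.4 (26.2), with an adjusted p of 0.0137. This call was lost with library totals only (-0.28, adjusted p = 0.125).

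In the diaphragm Cdkn1b was called at some of the older ages. Male libraries ran from 31.0 to 48.1 CPM (median 35.7) at 6, from 19.4 to 30.2 (26.5) at 21 and from 23.3 to 34.6 (29.9) at 27 months, a fall of 28.8% at 21 (adjusted p = 0.00161) and 19.8% at 27 months (log2 -0.32 ± 0.08, adjusted p = 0.0132). Without the libraries low in Ckm the male 27-month change was -0.23 ± 0.08 (adjusted p = 0.0401). The male 27-month call for Cdkn1b was lost when runs of the submitters' sample numbers were added as a factor (-0.30, adjusted p = 0.231) and with scaling by library totals only (-0.25, adjusted p = 0.116). Female libraries ran from 32.4 to 41.0 CPM (34.5) at 6, from 25.0 to 32.5 (27.2) at 24 and from 25.2 to 35.8 (29.2) at 27 months. The female fall of 22.4% at 24 months was called (adjusted p = 0.00216), and the log2 difference of -0.23 ± 0.07 at 27 months was not (adjusted p = 0.104). Without the libraries low in Ckm the female 27-month change was -0.27 ± 0.07 (adjusted p = 0.0231) and that at 18 months was -0.31 (adjusted p = 0.0361), both called.

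**Figure D3:**
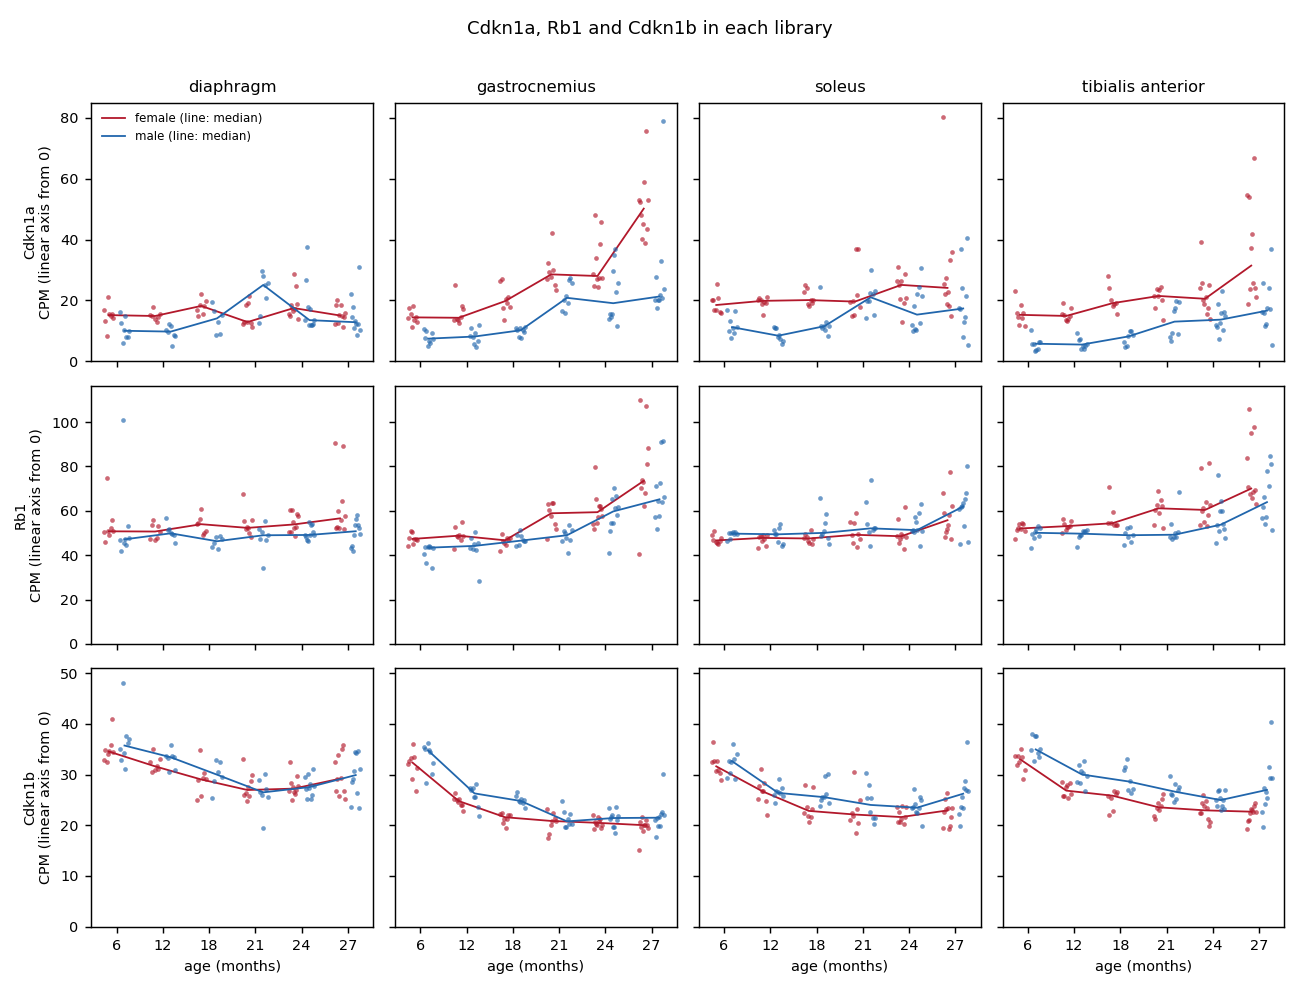
CPM of Cdkn1a, Rb1 and Cdkn1b in each library against age in months, with a column for each muscle, females in red and males in blue, and lines through the group medians on linear axes from 0. In the gastrocnemius Cdkn1a medians rise to 50.2 in females and 21.3 in males at 27 months, while Cdkn1b medians fall from 32.3 and 34.7 at 6 months to 20.0 and 21.5.

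Some fibroblast and satellite cell markers were called downward at 27 months as well. Of 7 fibroblast markers (Pdgfra, Dcn, Dpt, Col1a1, Col3a1, Lum and Gsn), 7 fell in the female soleus (18.7% of all genes called there in either direction), 5 in the male gastrocnemius (23.1%), 5 in the male tibialis anterior (17.7%), 5 in the female gastrocnemius (29.1%), 2 in the female tibialis anterior (21.9%), 2 in the male soleus (2.83%) and 1 in each diaphragm (8.62% in males, 1.61% in females), and 0 rose anywhere. Their summed level ran from 1638 to 1919 CPM at 6 and 1089 to 1459 at 27 months in the male gastrocnemius. In the female soleus it ran from 1652 to 2579 and then from 882 to 1734 CPM, and in the female diaphragm, where Cdkn1b was not called, from 2155 to 3603 and then from 1291 to 2082. Of 5 satellite cell markers (Pax7, Myf5, Calcr, Cdh15 and Chodl) 4 fell in each tibialis anterior, 3 in each diaphragm and the male gastrocnemius, 2 in the female gastrocnemius and soleus and 1 in the male soleus, and 0 rose, with sums of 22.3 to 28.0 CPM at 6 and 20.5 to 27.8 at 27 months in the female gastrocnemius. Both lists were detected throughout, and their part in the fall of Cdkn1b was not tested.

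Among the Ink4 genes, Cdkn2a (p16 and p19Arf, which gene counts cannot separate) rested on few reads. In the male gastrocnemius it ran from 0 to 0.0732 CPM (median 0.0218) at 6 months with 3 of 8 libraries at 0, from 0.046 to 0.292 (0.145) at 18 and from 0 to 0.238 (0.101) at 27 months with 1 of 10 at 0. It rose 5.59-fold at 18 (log2 2.48 ± 0.68, adjusted p = 0.0304) and 4.03-fold at 27 months (log2 2.01 ± 0.67, adjusted p = 0.0223), and the 27-month call was lost with limma-voom (1.86, adjusted p = 0.0866). The filter on low counts used all ages, and no 6-month library there reached its limit. Cdkn2a thus entered this fit only through older libraries with higher values, so these calls are not independent of the filter. The highest 27-month library there held 17 reads of Cdkn2a. The male diaphragm ran from 0 to 0.113 CPM (0.0319) and then from 0.0144 to 0.801 (0.149), which was not called (log2 2.20 ± 0.80, adjusted p = 0.0716); without replicate 6 at 27 months it was (2.32, adjusted p = 0.0410). In the female diaphragm 4 of 8 libraries were at 0 at 6 months and none at 27, when they ran from 0.0164 to 0.355 CPM (0.207), with a log2 difference of 1.59 (interval -0.12 to 3.30, adjusted p = 0.399).

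Where Cdkn2a could not be fitted, mean CPM at 27 and 6 months was compared by a two-sided exact permutation test over all 43758 splits, adjusted over 5 such tests. The male tibialis anterior had 6 of 8 libraries at 0 at 6 months and none at 27, with means of 0.00968 and 0.122 CPM (p = 0.00692, adjusted 0.0188). At 27 months replicate 1 held 0.517 CPM (31 reads), and replicates 0, 6 and 9 held 1 read each. The female gastrocnemius means were 0.0089 and 0.0300 CPM (p = 0.00752, adjusted 0.0188). All 8 female tibialis anterior libraries were at 0 at 6 months, which allows up to 0.0474 to 0.0571 CPM in a single library (3 counts), and 5 of 10 were at 0 at 27 months, with a mean of 0.0202 CPM (exact p = 0.0686, adjusted 0.114). Soleus means were 0.0422 and 0.0312 CPM in males (exact p = 0.727) and 0.0300 and 0.0326 in females (exact p = 0.903), with 6 of 10 libraries at 0 at 27 months in each sex. Counting limits and PCR copies both bear on levels this low, and the limit covers counting error only.

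Cdkn2b (p15), a neighbor of Cdkn2a on chromosome 4 and a target of TGF-β, was called once in 40 tests. In the male diaphragm it ran from 0.137 to 0.367 CPM (median 0.269) at 6 and from 0.26 to 0.772 (0.439) at 21 months, 1.78-fold higher with overlapping ranges (log2 0.83 ± 0.28, adjusted p = 0.0454; 0.92 and 0.0257 without the libraries low in Ckm). Without the 21-month library rich in liver transcripts that call was lost (0.88, adjusted p = 0.0856). At 27 months its log2 differences lay between -0.13 in the male soleus (interval -1.41 to 1.15) and 0.63 in the female diaphragm (-0.13 to 1.38).

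Cdkn2c (p18), an inhibitor of Cdk6 that is induced in myotube formation, moved by small amounts and in both directions. Female gastrocnemius libraries ran from 5.09 to 6.20 CPM (median 5.58) at 6 and from 5.21 to 7.36 (6.41) at 27 months, 1.15-fold higher (log2 0.21 ± 0.07, adjusted p = 0.0154), with calls also at 21 (0.25, adjusted p = 0.00856) and 24 months (0.18, adjusted p = 0.0497). In the male tibialis anterior it ran from 1.66 to 2.76 CPM (2.09) and then from 1.82 to 3.11 (2.69), 1.24-fold higher (0.31 ± 0.11, adjusted p = 0.0400). That call was lost without any 1 of 12 libraries, namely replicates 1, 2, 3, 4, 5 or 7 at 27 months or 0, 1, 3, 4, 5 or 7 at 6 months (log2 0.26 to 0.31, adjusted p 0.0502 to 0.0978). It fell in the female soleus at 24 months, from 1.63 to 4.66 CPM (2.19) down to 0.867 to 2.86 (1.56), with a log2 change of -0.66 ± 0.25 (adjusted p = 0.0486). In the female diaphragm replicate 0 at 27 months, low in Ckm, held 18.2 CPM against 2.93 for the lowest library. The difference there was 0.85 ± 0.28 (adjusted p = 0.102), and 0.46 without the libraries low in Ckm (adjusted p = 0.230).

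Cdkn2d (p19Ink4d), the remaining Ink4 inhibitor, was not called at any age. Its log2 differences at 27 months lay between -0.15 in the female soleus (interval -0.47 to 0.18) and 0.14 in the female diaphragm (-0.43 to 0.71), and were bounded most closely in the male gastrocnemius at -0.14 to 0.11. Male gastrocnemius libraries ran from 2.67 to 3.39 CPM (median 3.13) at 6 and from 2.75 to 3.26 (3.07) at 27 months.

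**Figure D4:**
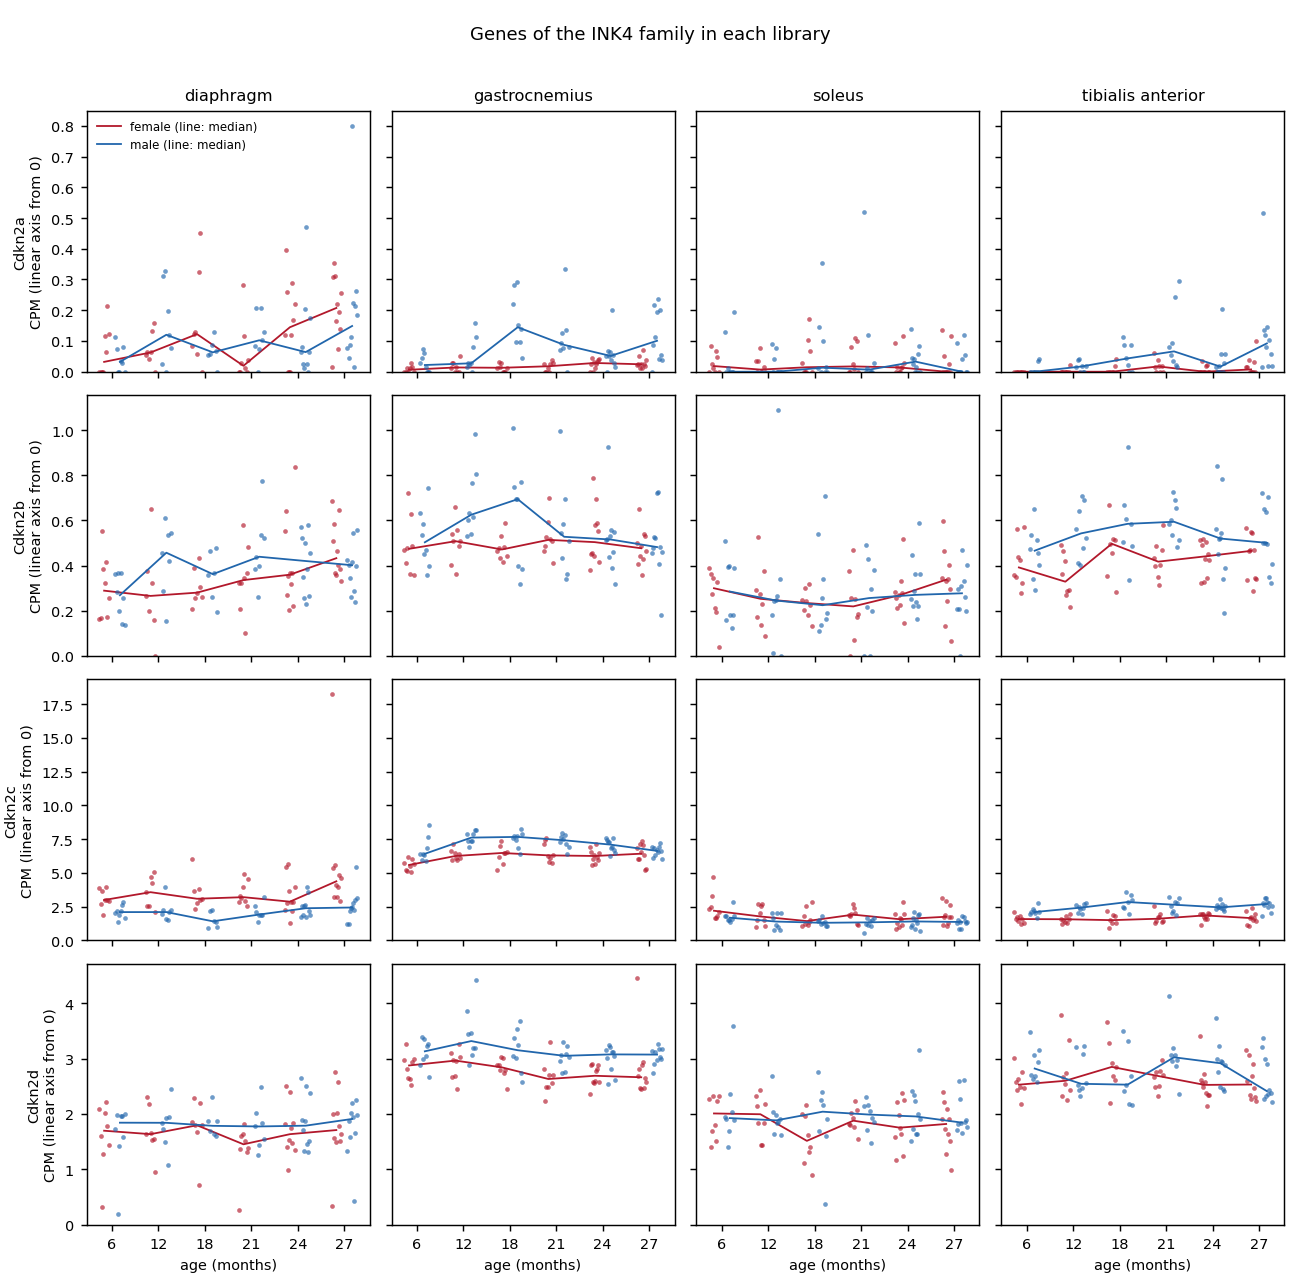
CPM of Cdkn2a, Cdkn2b, Cdkn2c and Cdkn2d in each library against age in months, by muscle (columns), females in red and males in blue, with lines through the medians on linear axes from 0. Cdkn2a medians at 27 months reach 0.207 in the female and 0.149 in the male diaphragm, while Cdkn2d shows no called age.

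Rb1, the pocket protein that the inhibitors keep active, rose in both gastrocnemius, both tibialis anterior and both soleus groups at 27 months. Male gastrocnemius libraries ran from 34.2 to 44.2 CPM (median 43.4) at 6, from 40.8 to 70.2 (59.7) at 24 and from 51.8 to 91.6 (65.2) at 27 months, all of the last above all of the first. The rise was 0.51 ± 0.09 on the log2 scale at 24 (adjusted p = 9.8e-05) and 0.74 ± 0.09 at 27 months (1.68-fold, adjusted p = 3.01e-08). Female gastrocnemius libraries ran from 44.2 to 51.0 CPM (47.3) at 6, from 51.9 to 79.8 (59.4) at 24 and from 40.3 to 110 (73.5) at 27 months, a 1.65-fold rise with 9 of 10 above the 6-month median (0.72 ± 0.10, adjusted p = 2.44e-07).

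In the female tibialis anterior Rb1 ran from 47.1 to 54.7 CPM (median 52.0) at 6 and from 63.1 to 106 (70.1) at 27 months, without overlap, 1.54-fold higher (log2 0.62 ± 0.09, adjusted p = 3.1e-07). The male tibialis anterior ran from 43.4 to 53.3 CPM (50.1) and then from 51.2 to 84.7 (63.9), 1.35-fold higher (0.44 ± 0.09, adjusted p = 0.000221). The soleus rose less, in females from 45.2 to 50.7 CPM (46.7) up to 47.1 to 77.4 (55.8), 1.21-fold (0.28 ± 0.07, adjusted p = 0.0026). In the male soleus the range of 46.6 to 50.4 CPM (49.7) became 45.2 to 80.03 (62.0), 1.23-fold (0.30 ± 0.08, adjusted p = 0.0292). The male soleus call was lost without replicate 6, 7 or 8 at 27 months or 0 or 2 at 6 months (log2 0.25 to 0.29, adjusted p 0.0501 to 0.0914). With scaling by library totals only both soleus calls of Rb1 were lost, at 0.09 in females (adjusted p = 0.374) and 0.32 in males (adjusted p = 0.0668). Under that scaling the median change of all genes moved to -0.22 in females and 0.01 in males.

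No Rb1 difference was called in the diaphragm at 27 months. Female libraries ran from 46.1 to 74.8 CPM (median 50.8) at 6 and from 51.6 to 90.4 (56.6) at 27 months (log2 0.21 ± 0.10, adjusted p = 0.319). Male libraries ran from 41.8 to 101 CPM (47.1) at 6, the highest being replicate 2 with little Ckm, and from 41.7 to 58.2 (50.8) at 27 months (-0.11 ± 0.11, adjusted p = 0.573). Without the libraries low in Ckm the differences were 0.21 ± 0.08 in females (adjusted p = 0.101) and 0.07 ± 0.07 in males (adjusted p = 0.553). Rb1 lies on the minus strand of chromosome 14 and overlaps Lpar6 and Rcbtb2 on the plus strand. It also overlaps Gm17233 and Mir687 on its own strand. Cdkn1a overlaps AC167363.2 and Ccnd1 overlaps LTO1, each on the other strand. The sources used here do not state whether the counting used strand.

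Trp53, which encodes p53, was called in 3 of 40 tests. It rose 1.12-fold in the female gastrocnemius, from 11.0 to 12.6 CPM (median 11.9) at 6 up to 12.4 to 14.4 (12.9) at 27 months (log2 0.17 ± 0.05, adjusted p = 0.00425), and all 10 old libraries lay above the young median. In the female tibialis anterior it rose 1.16-fold, from 8.62 to 11.1 CPM (9.72) up to 8.58 to 13.4 (11.2), with a log2 change of 0.22 ± 0.06 (adjusted p = 0.00869). It fell in the female soleus at 24 months, from 7.75 to 10.8 CPM (9.21) down to 6.65 to 8.78 (7.38), by 0.30 on the log2 scale (SE 0.08, adjusted p = 0.00492). Male gastrocnemius libraries ran from 11.9 to 14.2 CPM (12.3) and then from 11.3 to 14.7 (13.0), a difference of 0.08 that reached 0.13 (adjusted p = 0.0403) without replicate 0 at 27 months. In the male diaphragm Trp53 ran from 2.28 to 11.5 CPM (10.6) at 6 and from 6.04 to 22.3 (12.5) at 27 months, with the lowest library of each age low in Ckm. The difference was 0.42 ± 0.18 (adjusted p = 0.131), 0.49 without replicate 6 at 27 months (adjusted p = 0.0434), and 0.34 ± 0.12 without all libraries low in Ckm (adjusted p = 0.0529).

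Mdm2, the ubiquitin ligase that holds p53 in check, rose in both soleus groups and in the female gastrocnemius. Female soleus libraries ran from 33.0 to 43.3 CPM (median 37.6) at 6 and from 43.6 to 57.5 (47.5) at 27 months, without overlap, 1.30-fold higher (log2 0.38 ± 0.07, adjusted p = 7.06e-05), after rises of 0.33 at 21 and 0.28 at 24 months. Male soleus libraries ran from 37.6 to 45.5 CPM (39.9) and then from 41.2 to 53.9 (48.3), 1.17-fold higher (0.22 ± 0.06, adjusted p = 0.0221). The male soleus call was lost without replicate 2 at 27 months (log2 0.20, adjusted p = 0.0542) or replicate 4 at 6 months (0.21, adjusted p = 0.0610). In the female gastrocnemius Mdm2 ran from 51.7 to 63.3 CPM (59.4) and then from 39.8 to 77.3 (70.2), 1.16-fold higher (0.21 ± 0.07, adjusted p = 0.0125). It rose in the male diaphragm at 21 months by 0.23 ± 0.07 (1.17-fold, adjusted p = 0.0303), from 28.2 to 35.0 CPM (30.8) up to 34.4 to 40.4 (36.1). This call was lost without replicate 3 at 21 months (0.23, adjusted p = 0.0913). Tibialis anterior differences were not called, at 57.8 to 64.1 CPM (61.6) and 59.1 to 71.1 (64.0) in females and 55.1 to 64.5 (61.8) and 54.4 to 75.4 (64.4) in males. In males the log2 difference of 0.10 became 0.12 (adjusted p = 0.0482) without replicate 4 at 27 months.

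Ccnd1, cyclin D1, the only activator of the cycle in the group and the partner that the Ink4 proteins displace from Cdk4, rose in 5 of 8 combinations at 27 months. In the female gastrocnemius it ran from 5.32 to 9.82 CPM (median 7.96) at 6 and from 9.59 to 20.8 (13.2) at 27 months, 1.75-fold higher (log2 0.80 ± 0.15, adjusted p = 7.92e-05). The female tibialis anterior ran from 4.86 to 9.24 CPM (6.92) and then from 6.54 to 16.3 (12.4), also 1.75-fold higher (0.81 ± 0.15, adjusted p = 0.000114). Both had risen by 21 months, by 0.53 and 0.55 on the log2 scale.

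In the male diaphragm Ccnd1 was called at 18, 21, 24 and 27 months. It ran from 13.2 to 17.4 CPM (median 14.7) at 6, from 16.0 to 27.1 (21.3) at 18 and from 16.5 to 26.9 (23.3) at 27 months, 1.5-fold higher (log2 0.58 ± 0.11, adjusted p = 0.000935; 0.62 without the libraries low in Ckm). With runs of the submitters' sample numbers as a factor the 27-month call was lost (0.34, adjusted p = 0.242). The male gastrocnemius ran from 6.12 to 9.34 CPM (7.14) at 6, from 9.60 to 12.3 (10.7) at 24 and from 4.97 to 13.4 (10.2) at 27 months, with 24 months wholly above 6 (0.53, adjusted p = 0.00244) and 27 months 1.37-fold higher (0.45 ± 0.12, adjusted p = 0.00617). In the male tibialis anterior Ccnd1 was 1.98-fold higher at 24 months, at 7.81 to 16.3 CPM (11.5) against 4.60 to 8.55 (6.11), with a log2 change of 0.98 ± 0.19 (adjusted p = 0.000417).

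At 27 months male tibialis anterior libraries ran from 2.88 to 11.5 CPM of Ccnd1 (median 9.16), and the 1.43-fold rise just passed the threshold (log2 0.52 ± 0.19, adjusted p = 0.0497). It was lost without any 1 of 15 libraries, namely replicates 0, 1, 2, 3, 4, 5, 7 or 9 at 27 months or any of 1 to 7 at 6 months (0.46 to 0.54, adjusted p 0.0548 to 0.0991). Female diaphragm libraries ran from 12.2 to 22.9 CPM (18.8) and then from 18.3 to 33.2 (25.0), with a difference of 0.49 (interval 0.18 to 0.79, adjusted p = 0.082). It was called without replicate 0 at 27 months (0.53, adjusted p = 0.0376) or replicate 6 at 6 months (0.55, adjusted p = 0.0456). The female soleus difference of 0.31 (interval 0.06 to 0.55, adjusted p = 0.0674) was likewise called without replicate 2 at 27 (0.35, adjusted p = 0.0334) or replicate 5 at 6 months (0.35, adjusted p = 0.0448). The male soleus ran from 10.3 to 16.5 CPM (13.6) and then from 6.52 to 19.3 (13.3), a log2 difference of -0.03 (interval -0.31 to 0.24).

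**Figure D5:**
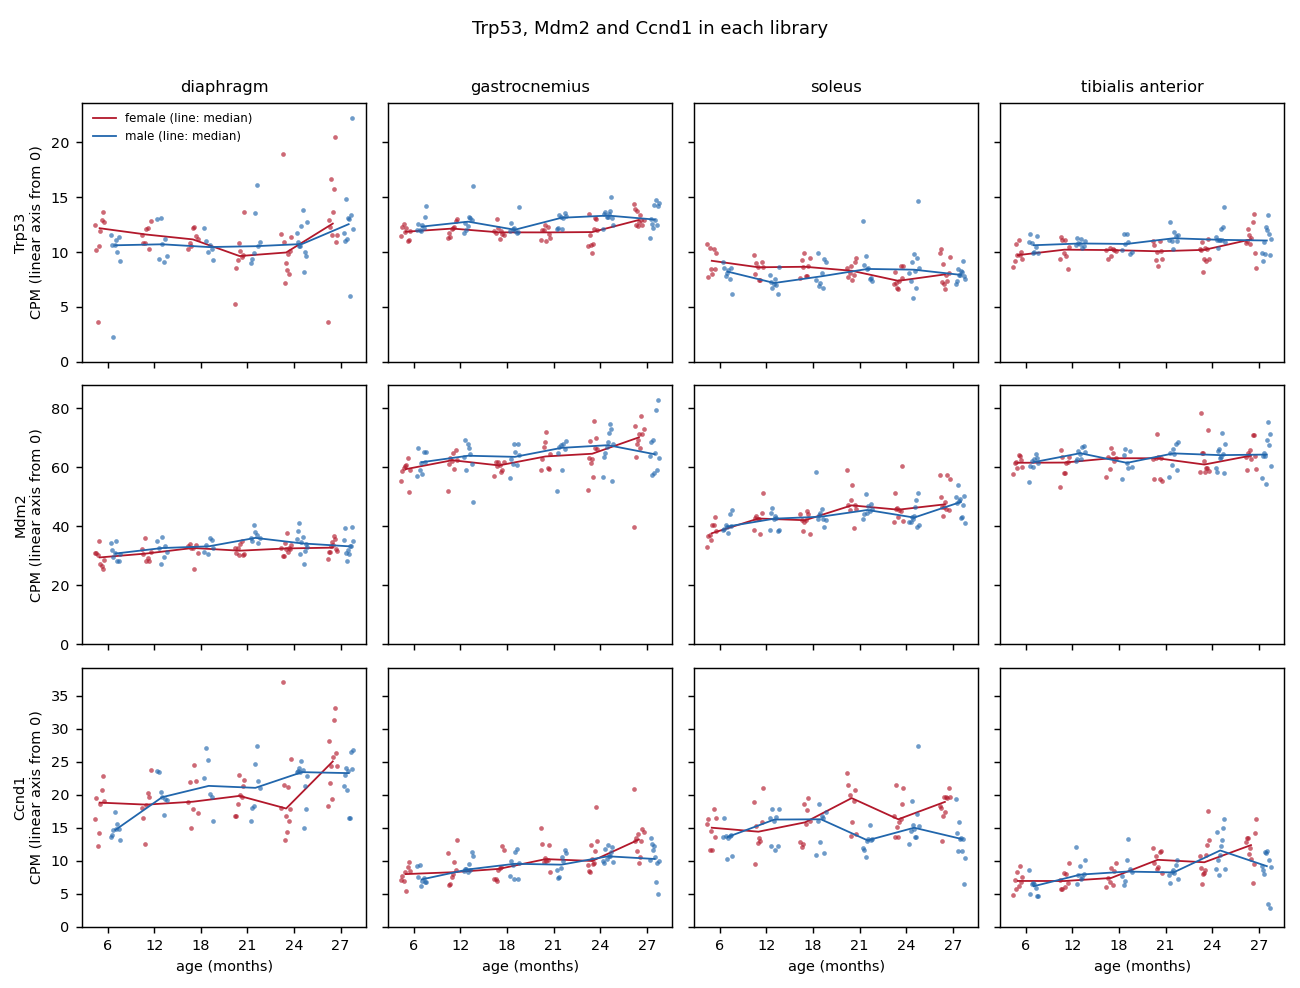
CPM of Trp53, Mdm2 and Ccnd1 in each library against age in months, by muscle (columns), females in red and males in blue, with lines through the medians on linear axes from 0. Mdm2 medians in the female soleus move from 37.6 at 6 to 47.5 at 27 months, and Ccnd1 medians in the female gastrocnemius from 7.96 to 13.2.

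Steps between adjacent ages placed the changes. From 6 to 12 months 3 tests were called, all Cdkn1b. They lay in the female gastrocnemius (all genes 0.579%), the male gastrocnemius (1.06%) and the female tibialis anterior (0.493%). At each of the 4 later steps 75 combinations of gene, sex and muscle were tested. Of these tests 8 were called in all, where 0.818% of such tests over all genes were. Cdkn1a rose from 18 to 21 months in the female gastrocnemius (log2 0.55 ± 0.15, adjusted p = 0.0453) and in the male gastrocnemius (1.13 ± 0.24, adjusted p = 0.0116), in males without overlap of libraries. From 24 to 27 months Cdkn1a, Rb1 and Trp53 rose together in the female gastrocnemius, by 0.64 ± 0.13, 0.36 ± 0.09 and 0.17 ± 0.04 on the log2 scale (adjusted p = 0.00432, 0.0229 and 0.0178). The same 3 genes rose over that step in the female tibialis anterior, by 0.76 ± 0.18, 0.34 ± 0.08 and 0.20 ± 0.06 (adjusted p = 0.0158, 0.0123 and 0.0489).

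Muscles differed in these changes. The 27-month change was compared between each pair of muscles within a sex, and 15 of 120 such differences were called, where 4.35% of differences in females and 1.65% in males were called over all genes. The Cdkn1a change was smaller in the female diaphragm than in the gastrocnemius (difference in log2 change -1.77 ± 0.25, adjusted p = 5.6e-08) and the tibialis anterior (-1.19 ± 0.25, adjusted p = 0.000648). It was higher in the female gastrocnemius than in the soleus by 1.15 ± 0.25 (adjusted p = 0.00137), and smaller in the male diaphragm than in the male gastrocnemius (-1.37 ± 0.36, adjusted p = 0.015). No difference was called between gastrocnemius and tibialis anterior in females (0.57, interval 0.09 to 1.06) or males (0.20, -0.50 to 0.91).

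The Rb1 change was also smaller in the female diaphragm than in the gastrocnemius (-0.51 ± 0.12, adjusted p = 0.00676) and tibialis anterior (-0.39 ± 0.12, adjusted p = 0.0486), and higher in the female gastrocnemius than in the soleus by 0.43 ± 0.12 (adjusted p = 0.0207). The male diaphragm differed from the gastrocnemius by -0.83 ± 0.13 (adjusted p = 2.88e-06) and from the tibialis anterior by -0.50 ± 0.13 (adjusted p = 0.0271), the latter lost without the libraries low in Ckm (-0.33, adjusted p = 0.168). The fall of Cdkn1b was smaller in the female diaphragm than in the gastrocnemius by 0.46 ± 0.09 (adjusted p = 0.000103), the tibialis anterior by 0.31 ± 0.09 (adjusted p = 0.015) and the soleus by 0.28 ± 0.09 (adjusted p = 0.0352), the last lost without those libraries (0.25, adjusted p = 0.0609). Of the remaining 3, 1 was Cdkn2c, higher in the change of the female diaphragm than the soleus by 1.22 ± 0.28 (adjusted p = 0.00364) and by 0.83 ± 0.26 without the libraries low in Ckm (adjusted p = 0.0365). The others were Mdm2, higher in the female soleus than the tibialis anterior by 0.31 ± 0.09 (adjusted p = 0.0172), and Ccnd1, higher in the male diaphragm than the soleus by 0.63 ± 0.20 (adjusted p = 0.0481). Without the libraries low in Ckm 18 differences were called, 13 of them in common, and the 5 gained included Trp53, whose change was lower in the female soleus than in the diaphragm by 0.37, the gastrocnemius by 0.33 and the tibialis anterior (soleus minus tibialis anterior -0.36; adjusted p = 0.0414 for the diaphragm, 0.0429 for the gastrocnemius and 0.0230 for the tibialis anterior).

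No difference between males and females in the 27-month change was called for the 10 genes. Of 38 differences 0 were called, with 0 of all genes called in the diaphragm (0%) and 1.59%, 0.83% and 1.67% in the gastrocnemius, soleus and tibialis anterior. An unadjusted p below 0.05 was found for 4, namely Cdkn1b in soleus (0.0322) and tibialis anterior (0.0367), Cdkn2c in gastrocnemius (0.0194) and Rb1 in diaphragm (0.0298), and limma-voom called 0. The male minus female difference in the Cdkn1a change was 0.10 in the gastrocnemius, with an interval of -0.44 to 0.64, and 0.45 in the tibialis anterior (-0.19 to 1.10).

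Levels at 6 months were called different by sex for Cdkn1a and Cdkn2c, in a count near the share of all genes. In the gastrocnemius Cdkn1a averaged 14.7 CPM in females and 7.75 in males, 1.91-fold higher in females (adjusted p = 0.000306), and in the tibialis anterior 15.7 and 5.68 CPM, 2.76-fold higher (adjusted p = 4.25e-06), with no overlap of libraries in either. Cdkn2c was 1.20-fold higher in the male gastrocnemius (6.75 against 5.57 CPM, adjusted p = 0.00103) and 1.34-fold higher in the male tibialis anterior (2.13 against 1.59 CPM, adjusted p = 0.0222), with overlap. These 4 of 38 tests compare with 19.8% of all genes called in the gastrocnemius, 13.5% in the tibialis anterior, 8.4% in the soleus and 0.512% in the diaphragm. How often the libraries of the sexes stood apart over all genes was not counted.

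Between muscles at 6 months 55 of 120 level differences were called, where 54.5% of all genes in females and 47.8% in males were. Mdm2 was called in 10 of 12 and was highest in gastrocnemius and tibialis anterior, at means of 58.7 and 61.4 CPM in females and 61.8 and 61.2 in males, against 38.1 and 40.7 in soleus and 29.4 and 31.1 in diaphragm. Cdkn2c was called in 8 of 12, with 5.57 CPM in the female gastrocnemius against 3.11 in diaphragm, 2.48 in soleus and 1.59 in tibialis anterior, and 6.75 in the male gastrocnemius against 2.08, 1.77 and 2.13. Ccnd1 (8 of 12) had the opposite order to Mdm2, with female means of 17.9 CPM in diaphragm, 14.7 in soleus, 7.80 in gastrocnemius and 6.94 in tibialis anterior. Cdkn2d (8 of 12) averaged 2.85 CPM in the gastrocnemius of females and 3.10 in that of males, 2.57 and 2.91 in tibialis anterior, 1.94 and 2.11 in soleus and 1.59 and 1.60 in diaphragm. Its difference between the female soleus and tibialis anterior was not called (log2 -0.39, adjusted p = 0.0581). Trp53 was called in 5, Rb1 and Cdkn2b in 4 each, Cdkn1a and Cdkn2a in 3 each and Cdkn1b in 2 of 12. Without the libraries low in Ckm 60 were called, with 4 lost and 9 gained. The Rb1 differences between diaphragm and gastrocnemius were then lost, at 0.11 in females (adjusted p = 0.256) and 0.08 in males (adjusted p = 0.449). Also lost were the male Cdkn2d difference between diaphragm and soleus (-0.48 before, -0.31 and adjusted p = 0.059 without) and the male Trp53 difference between diaphragm and tibialis anterior (-0.30 before, -0.15 and adjusted p = 0.14 without). Of the 9 gained 4 were Trp53, 2 Cdkn1b and 1 each Ccnd1, Cdkn2d and Rb1.

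Genes that work with these 10 were read from named lists, each count being set beside the share of all genes called in the same group in either direction. Rb1 is itself on the pocket protein list and Ccnd1 on the G1 list, so those counts include them. Rb1 was the only call of its list in the male soleus, and Ccnd1 the only call of its list in the female tibialis anterior. Of 13 pocket protein and E2F genes, 4 rose and 2 fell at 27 months in the female gastrocnemius (all genes 29.1%), 3 and 2 in the male gastrocnemius (23.1%) and female tibialis anterior (21.9%), 4 and 1 in the male tibialis anterior (17.7%), 4 and 0 in the female soleus (18.7%), 1 and 0 in the male soleus (2.83%), and none was called in either diaphragm. E2f2, an activator E2F, rose in the female tibialis anterior from a mean of 2.53 to 5.29 CPM (log2 1.09 ± 0.13, adjusted p = 1.49e-08) and in the female gastrocnemius from 2.56 to 4.89 (0.95, adjusted p = 4.93e-07). E2f8, a repressor E2F that peaks in S phase, rose in the female gastrocnemius from 0.197 to 0.412 CPM (1.07 ± 0.32, adjusted p = 0.00968). Of 11 G1 cyclins and CDKs, 3 rose and 3 fell in the male gastrocnemius (23.1%), 2 and 3 in the female gastrocnemius (29.1%), 2 and 1 in the male diaphragm (8.62%), 1 and 2 in the male tibialis anterior (17.7%), 1 and 0 in the female tibialis anterior (21.9%) and 0 and 1 in the female soleus (18.7%), the last pair below the share of all genes. None was called in the male soleus or female diaphragm. Cdk6, the kinase that Ink4 proteins bind, rose in the male diaphragm from 2.84 to 4.32 CPM (0.60 ± 0.17, adjusted p = 0.0213), and Ccne2, cyclin E2, fell in the female gastrocnemius from 8.39 to 6.66 CPM (-0.32 ± 0.08, adjusted p = 0.00266). Of the other CDK inhibitors Cdkn1c (p57) fell in the male diaphragm from 10.7 to 7.29 CPM (-0.57 ± 0.16, adjusted p = 0.0246) and rose in the female gastrocnemius from 8.38 to 10.5 (0.34 ± 0.10, adjusted p = 0.00548).

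Regulators of p53 were called in both directions. Of 10 or 11 tested, 4 rose and 0 fell in the male tibialis anterior (all genes 17.7%), 3 and 0 in the male gastrocnemius (23.1%), 3 and 1 in the female tibialis anterior (21.9%), 2 and 0 in the male soleus (2.83%), 2 and 2 in the female gastrocnemius (29.1%), 0 and 3 in the female soleus (18.7%), 0 and 1 in the male diaphragm (8.62%) and 0 and 0 in the female diaphragm (1.61%). Trp63, the p53 paralog p63, rose in the female tibialis anterior from 12.5 to 24.9 CPM (log2 1.02 ± 0.11, adjusted p = 3.07e-09) and in the male tibialis anterior from 12.0 to 25.9 (1.13 ± 0.16, adjusted p = 7.56e-07). Mdm4, the Mdm2 partner that inhibits p53, rose in the female tibialis anterior from 59.8 to 78.5 CPM (0.42 ± 0.05, adjusted p = 6.36e-09), and Ppm1d, a phosphatase that ends p53 signaling, fell in the female soleus from 8.54 to 6.18 CPM (-0.47 ± 0.08, adjusted p = 4.87e-05).

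Targets of p53 other than the group itself were called in both directions, too. Of 27 or 28 tested, 9 rose and 2 fell in the male gastrocnemius (all genes 23.1%), 8 and 5 in the female gastrocnemius (29.1%), 6 and 3 in the female tibialis anterior (21.9%), 5 and 1 in the female soleus (18.7%), 4 and 3 in the male tibialis anterior (17.7%), 3 and 0 in the male diaphragm (8.62%), 2 and 0 in the male soleus (2.83%) and 0 and 0 in the female diaphragm (1.61%). Gadd45a, a stress-induced growth arrest gene, rose in 7 of the 8, from means of 7.09 to 29.9 CPM in the male gastrocnemius (log2 2.08 ± 0.23, adjusted p = 1.47e-09) and from 7.15 to 31.5 in the female tibialis anterior (2.17 ± 0.26, adjusted p = 1.49e-08). Eda2r, the ectodysplasin A2 receptor, rose from 29.4 to 88.3 CPM in the female gastrocnemius (1.60 ± 0.16, adjusted p = 1.65e-10) and from 23.6 to 77.4 in the female tibialis anterior (1.74 ± 0.19, adjusted p = 1.6e-09). Perp, a desmosome protein and p53 target, fell in the female soleus from 7.94 to 1.53 CPM (-2.40, adjusted p = 0.00113).

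Genes of S and M phase rose in most of their calls. In both gastrocnemius and both soleus groups the counts called lay near or below the share of all genes. Of 22 to 24 tested, 11 rose in the male diaphragm (all genes 8.62%), 10 in the female tibialis anterior (21.9%), 7 in the male tibialis anterior (17.7%), 6 in the female gastrocnemius (29.1%), 4 in the male gastrocnemius (23.1%), 2 in the female soleus (18.7%), 1 in the male soleus (2.83%) and 0 in the female diaphragm (1.61%), and 1 fell in each of the male gastrocnemius and female tibialis anterior. Mki67, a proliferation marker, rose in the female tibialis anterior from 1.32 to 5.27 CPM (log2 2.02 ± 0.41, adjusted p = 0.000255), and Ccnb1, cyclin B1, rose in the male diaphragm from 0.201 to 1.39 CPM (2.77 ± 0.65, adjusted p = 0.00815). In the male diaphragm 6 of 7 T cell markers rose as well, all but Thy1, with sums of 2.49 to 19.8 CPM at 6 and 9.94 to 50.3 at 27 months. In the female tibialis anterior 2 of 4 tested T cell markers, 3 of 7 macrophage markers and 6 of 7 liver genes rose, the last from sums of 0.162 to 19.8 CPM up to 0.952 to 586. The part of these cell types in the S and M phase counts was not tested.

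Of 17 to 19 senescence-associated secreted and nuclear genes tested, 7 rose and 1 fell in the female gastrocnemius (all genes 29.1%), 6 rose in the male gastrocnemius (23.1%), 5 in the male diaphragm (8.62%), 5 in the female tibialis anterior (21.9%), 4 in the male tibialis anterior (17.7%), 2 in the female diaphragm (1.61%) and none in the female (18.7%) or male soleus (2.83%). Both tibialis anterior counts lay near the share of all genes. Ccl8, a chemokine made by macrophages, rose in the male diaphragm from 0.319 to 4.93 CPM (log2 3.94 ± 0.70, adjusted p = 0.000561), and Mmp12, the macrophage elastase, rose in the female gastrocnemius from 0.104 to 0.396 CPM (1.93, adjusted p = 0.000256). Of 7 macrophage markers 1 rose in each of these groups, Cd68 in both. Denervation genes, whose transcription outside the synapse is held down by nerve activity, were called upward in 7 of the 8 combinations. Of 13, 12 rose in each gastrocnemius (all genes 29.1% in females, 23.1% in males), 11 in each tibialis anterior (21.9% and 17.7%), 7 in each soleus (18.7% and 2.83%), 3 in the male diaphragm (8.62%) and 0 in the female diaphragm (1.61%), and 0 fell anywhere. Chrng, the fetal acetylcholine receptor subunit, rose in the female tibialis anterior from 0.0361 to 1.81 CPM (5.65 ± 0.89, adjusted p = 5.53e-06). Of 9 muscle fiber markers 3 rose and 4 fell in the male gastrocnemius (23.1%) and 2 rose and 4 fell in the female gastrocnemius (29.1%), and 0 to 2 were called in the other muscles. Their sum ran from 276133 to 316270 CPM at 6 and 239502 to 291378 at 27 months in the male gastrocnemius, and the part of fiber type in the Cdkn1a and Rb1 changes was not tested.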

How the data were processed

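RNA from 407 mouse muscle samples was made by the authors into stranded libraries, sequenced paired-end and quantified in ArrayStudio against mm10 with their own RefSeq-based gene model. The deposited tables hold raw read counts per gene, 25091 lines each. Where lines shared a symbol (329 symbols), only the line with the highest total was kept. The other lines of those symbols, with 0.0335% of the counts, were left out. Samples were grouped by the labels.

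Counts were fitted separately for each sex and muscle with edgeR 4.0.16 (filterByExpr, TMM, glmQLFit, R 4.3.3) over 6 ages, 14487 to 16193 genes each, with Benjamini-Hochberg adjustment. Interactions used joint fits. Alternatives were limma 3.58.1 (voom), DESeq2 1.42.0, other scalings, no filter and left-out libraries. CPM were scaled by TMM over all libraries. The tests were checked on simulated counts. Muscles may share mice, which the labels do not tie together, so comparisons between muscles treat libraries as independent. No library pair was duplicated (lowest chi-square per degree of freedom 8.19 over 1552 pairs within groups).

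The 10 genes and the lists were chosen with earlier results of these data known. From each list the genes named were the called ones with the largest and second largest change, and for each of the 10 genes the 3 with the most similar pattern; other genes were named after their values were seen. Promoters came from a RefSeq table of GRCm38.p6 and gene positions from GENCODE. Proteins were not used here.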

Additional observations from a re-analysis of the deposited data

Results flagged for a closer look

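Libraries that stood apart from the rest of their group at 6 or 27 months on the log scale were found in 25 of 149 group and gene combinations tested by Dixon's criterion, where chance gives about 5%, or 7. Of the diaphragm libraries low in Ckm, male replicate 2 at 6 months held the highest Cdkn1b (48.1 CPM) and Rb1 (101.1 CPM) and the lowest Cdkn2d (0.1835 CPM) and Trp53 (2.281 CPM) of its group. Female replicate 2 at 6 months held the highest Rb1 (74.83 CPM) and the lowest Cdkn2d (0.326 CPM) and Trp53 (3.674 CPM). Female replicate 0 at 27 months held the highest Cdkn2c (18.23 CPM) and the lowest Cdkn2d (0.3274 CPM) and Trp53 (3.666 CPM), and male replicate 6 at 27 months the lowest Cdkn2d (0.4189 CPM). In the female diaphragm at 6 months replicate 6 held the highest Cdkn1b (40.99 CPM).

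In the male gastrocnemius at 27 months replicate 8 held the highest Cdkn1a (79.14 CPM) and Cdkn1b (30.19 CPM) and the lowest Cdkn2b (0.1796 CPM), and replicate 0 held no Cdkn2a read (0.0 CPM). In the female gastrocnemius at 27 months replicate 0 held the lowest Cdkn1b (15.05 CPM) and Mdm2 (39.84 CPM) and the highest Cdkn2d (4.452 CPM). Soleus libraries that stood apart were female replicate 0 at 27 months for Cdkn1a (80.13 CPM) and replicate 2 for Ccnd1 (13.04 CPM), female replicate 7 at 6 months for Cdkn2b (0.0407 CPM), male replicate 3 at 27 months for Cdkn2b (0.0 CPM) and male replicate 6 at 6 months for Cdkn2c (2.807 CPM). In the tibialis anterior male replicate 0 at 6 months held the lowest Mdm2 (55.09 CPM).

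The 27-month change differed between muscles in 15 comparisons of log2 changes. For Cdkn1a these were -1.765 for female diaphragm minus gastrocnemius, -1.192 for diaphragm minus tibialis anterior, 1.153 for gastrocnemius minus soleus and -1.365 for male diaphragm minus gastrocnemius. For Cdkn1b in females they were 0.4569, 0.2793 and 0.3148 for diaphragm minus gastrocnemius, soleus and tibialis anterior. For Rb1 they were -0.5054 and -0.3893 for female diaphragm minus gastrocnemius and tibialis anterior, 0.4309 for female gastrocnemius minus soleus, and -0.8271 and -0.4958 for male diaphragm minus gastrocnemius and tibialis anterior. The others were 1.223 for Cdkn2c in female diaphragm minus soleus, 0.3067 for Mdm2 in female soleus minus tibialis anterior and 0.6288 for Ccnd1 in male diaphragm minus soleus.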

How the results depend on the processing

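No called value of the 10 members reversed under any alternative run. Of 2065 values recomputed for 75 results at 27 months, 1960 kept their side of the threshold, 88 lost it and 17 gained it. The count of members called at 27 months, 31, was 34 with DESeq2, 27 with limma-voom, 28 with library totals only and 29 to 33 without any 1 library. With runs of the submitters' sample numbers as a factor it was 30. It was 32 without the diaphragm libraries low in Ckm. A Bonferroni adjustment left 13, and so did an added fold above 1.5 (13). At 12 to 24 months the 53 calls became 24 with Bonferroni and 16 with the fold limit. Between adjacent ages 11 became 3 under either. Differences between muscles in the change fell from 15 to 3 with Bonferroni. They ran from 16 to 19 with library totals or without a few chosen diaphragm and male libraries. Not every library was left out in turn for these differences. Level differences at 6 months fell from 55 to 26 with Bonferroni. Sex differences in the change went from 0 to 1 with library totals only, and those in level from 4 to 1 with Bonferroni. With library totals only the median 27-month log2 change of all genes moved to -0.22 in the female soleus and 0.14 in the female gastrocnemius, and 7 single calls were lost and 4 gained. Those lost included Mdm2 in the male soleus (0.24, adjusted p = 0.0992) and Ccnd1 in the male tibialis anterior (0.56, adjusted p = 0.0503), and those gained were Trp53 in the female soleus (-0.36, adjusted p = 0.00439) and Mdm2 in the male gastrocnemius and both tibialis anterior groups. With limma-voom Cdkn2c (0.30, adjusted p = 0.0537) and Ccnd1 (0.42, adjusted p = 0.169) were lost in the male tibialis anterior. Bonferroni and the fold limit call fewer genes by construction.

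Groups share replicate numbers, but libraries of the same number did not deviate together as a rule (median r -0.02 to 0.07 by sex and muscle, single pairs -0.545 to 0.859, with at most 45.9% of pairs over 0.1), so the numbers were not taken as pairs. With the replicate block 29 of the 31 calls at 27 months remained as a count, with 53, 11, 16 and 55 for the other comparisons and 4 and 0 for sex. Depth limits Cdkn2a, at 0 in up to 8 of 8 libraries of a group, and to a lesser degree Cdkn2b.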

Other observations

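Across the 48 means by muscle, sex and age, each centered on its muscle and sex, 14182 genes tested in every fit were ranked by their likeness to each gene of the group (Pearson's r of log2 CPM, a description across means that share libraries and age). The closest to Cdkn1a were Tubb6, a tubulin of regenerating muscle (0.92), Krt8 (0.88) and Klhdc8a (0.88). Rb1 was followed by Cpne2 (0.92), Tnfrsf23 (0.90) and Chrna1, the acetylcholine receptor alpha subunit (0.90). The closest to Cdkn1b were Col1a2 (0.87) and Col1a1 (0.86), the chains of type I collagen, and Cilp2 (0.86). Trp53 was closest to Psmb8, an immunoproteasome subunit (0.82), Csk (0.81) and Irf8, a factor of myeloid and B cells (0.80), and Mdm2 to Micall1 (0.85), Amot (0.83) and Yap1 (0.83). For Ccnd1 they were Tubb3, Rrad and Hip1r (0.79 each), and for the Ink4 genes tested in every fit (all but Cdkn2a) r did not pass 0.70, which Osbpl7 reached with Cdkn2d. Cdkn2c was closest to Prps2 (0.65), and so was Cdkn2b to Aurka, a mitotic kinase (0.65). Within the group the values were 0.78 for Cdkn1a with Rb1, -0.75 for Cdkn1a with Cdkn1b and -0.74 for Cdkn1b with Ccnd1.

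Of 10 Foxo and atrophy genes, 5 rose in the male gastrocnemius (23.1% of all genes called in either direction), 3 in the male tibialis anterior (17.7%) and 3 in the female gastrocnemius (29.1%) at 27 months, where 2 others fell, and 0 or 1 rose elsewhere. Trim63, the muscle ubiquitin ligase MuRF1, rose in the male tibialis anterior from a mean of 79.1 to 155 CPM (log2 0.99, adjusted p = 0.00727) and fell in the female soleus from 50.4 to 38.3 CPM (-0.40, adjusted p = 0.0222). Mt2, a metallothionein, rose in the male diaphragm from 7.76 to 82.3 CPM (3.40, adjusted p = 0.0149).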
